A study of Oryctolagus cuniculus with 4 samples.

Results

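Genes of the TGF-beta and BMP, Wnt and FGF signalling pathways were compared between rabbit parthenotes and in vivo fertilised blastocysts. The members were the array probes, controls apart, whose description names transforming growth factor beta (with or without a comma), bone morphogenetic protein, activin, inhibin, SMAD family, wingless-type, frizzled, dickkopf or fibroblast growth factor. This rule found 163 of the 43603 probes, and they belonged to 71 genes of the 10351 named on the array. There were 33 genes of the TGF-beta, BMP and activin family, 19 of the Wnt family and 19 of the FGF family.

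The parthenotes came from oocytes of New Zealand White does that were activated by electrical pulses and then exposed to cycloheximide and 6-DMAP. They grew in the oviducts and uteri of recipient does and were recovered as blastocysts at 6 days. The controls were untreated in vivo fertilised New Zealand White blastocysts of the same age. Each of the 4 pools per group held 7 blastocysts, and each of the 4 arrays received a parthenote pool labelled with Cy3 and a fertilised pool labelled with Cy5. The dyes were swapped on 0 arrays, so dye and group cannot be told apart, and all arrays were on 1 slide.

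Ligands of the TGF-beta superfamily bind pairs of type I and type II receptor kinases, which phosphorylate SMAD proteins that then enter the nucleus. Activins are dimers of inhibin beta subunits, and inhibins, which also carry the alpha subunit, oppose them. Wnt ligands bind Frizzled receptors, either with LRP co-receptors to stabilise beta-catenin or with receptors such as ROR2 to act without it, while FGFs bind receptor tyrosine kinases that signal through FRS2 and the MAP kinases. In early mammalian embryos, FGF signalling helps to separate epiblast from primitive endoderm. Nodal, BMP and Wnt signals later pattern the epiblast towards the primitive streak.

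On each array 43803 spots were not controls, of which 26 to 48 were flagged. The software called 25805 to 26339 of them well above background for the parthenotes and 27508 to 27835 for the fertilised blastocysts. The embryo label was borne out by trophectoderm and epiblast markers, since all 5 measured trophectoderm genes, KRT8 and GATA3 among them, and all 4 epiblast genes, POU5F1 and GDF3 among them, were well above background in every pool. These embryo markers also differed between the groups by the test described below. KRT8 and POU5F1 were higher in parthenotes, with mean log2 ratios of 0.58 and 0.21, and GATA2 of the trophectoderm list was lower, with -0.64. The others did not pass. Markers of cell types outside the blastocyst were higher in parthenotes for 4 of 7 motile cilium genes, 3 of 4 secretory genes, 3 of 6 leukocyte genes and 1 of 8 stroma genes. Of all 10351 named genes, 1197 were higher and 1271 lower by the same test. The summed processed signal ranged from 1450 to 3640 in parthenote pools against 480 to 622 in fertilised pools for the cilium genes, and from 5830 to 25600 against 683 to 2240 for the secretory genes. For leukocyte genes it ranged from 947 to 1160 against 689 to 715, and for stroma genes from 3660 to 5070 against 2340 to 3210. Most of the stroma sum came from TAGLN alone, the 1 stroma gene that was higher, with 3380 to 4660 against 2110 to 2970. The defining genes FOXJ1, ESR1, PTPRC, ACTA2 and COL1A1 were not well above background in any pool. Primitive endoderm genes did not pass the test (0 of 3), with summed signals of 549 to 1290 against 872 to 1460. The part of these cells in the differences given here was not tested.

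The probes that carried the Wnt result are shown first, because 3 different ligands were measured at the same place. Each of these 60-base probes lies at the 3′ end of its coding sequence and closes with a stop codon. Capitals mark the 28 bases that are identical in all 3, counted from the first base of each probe.
WNT3: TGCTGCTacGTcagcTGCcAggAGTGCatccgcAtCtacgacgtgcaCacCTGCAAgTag
WNT5B: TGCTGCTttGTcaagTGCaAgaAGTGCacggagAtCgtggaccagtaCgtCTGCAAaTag
WNT10A: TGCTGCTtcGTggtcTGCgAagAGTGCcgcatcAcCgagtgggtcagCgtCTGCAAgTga

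The array lists these probes at chr19:45863406-45863462 on the plus strand for WNT3, chr8:36029457-36029516 on the minus strand for WNT5B and chr7:160152442-160152498 on the plus strand for WNT10A, in a rabbit genome build that it does not name. The WNT3 probe shared 40 of 60 bases with the WNT5B probe and 37 with the WNT10A probe. The WNT10B and WNT7A probes lie at the same place, share 45 of 60 bases with WNT10A and 39 with WNT3, respectively, and were not well above background in any pool. A second WNT3 probe and the probe of WNT5A, a Wnt ligand whose description the rule does not match, lie elsewhere in their transcripts.
WNT3, base 863: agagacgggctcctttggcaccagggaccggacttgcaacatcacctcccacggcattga
WNT5A, base 149: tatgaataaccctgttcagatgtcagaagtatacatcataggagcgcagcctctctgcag

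For the TGF-beta type I receptor TGFBR1, 3 probes cover adjoining stretches at the end of the coding sequence, and they are shown because they disagreed. Capitals mark the stop codon.
TGFBR1, base 1260: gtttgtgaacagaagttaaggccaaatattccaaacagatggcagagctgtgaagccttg
TGFBR1, base 1320: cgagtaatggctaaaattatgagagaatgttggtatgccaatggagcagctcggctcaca
TGFBR1, base 1380: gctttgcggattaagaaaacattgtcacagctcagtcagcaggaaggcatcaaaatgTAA

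Differences are given as the log2 ratio of parthenote over fertilised on each array, computed from the deposited ratio of the processed Cy3 and Cy5 signals. A probe passed the test when its mean over the arrays differed from 0 with a limma p-value below 0.05 after Benjamini-Hochberg adjustment over the 43595 probes tested. Of the 163 member probes 13 passed (7.98%), 5 higher and 8 lower in parthenotes. Over all probes 20.6% passed, 9.53% higher and 11.1% lower, so the share among the members was below the background. Among the 81 member probes that stood well above background in every pool of both groups, 8 passed (9.88%), against 29.5% of all such probes. The 59 member probes that were never well above background gave 0 calls, against 489 calls among all 13441 such probes. With so low a share over all probes, nothing is read from this 0. The median mean log2 ratio was 0.00 over the members as over all probes. Without adjustment, 30 member probes (18.4%) had a limma p under 0.05, against 36.6% of all probes.

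Many probes of a gene overlap and share most of their bases, so the 163 probes covered 97 separate windows when probes that share 30 or more bases end to end were joined. When each gene was represented by its probe with the highest mean signal, 10 of 71 genes passed, 4 higher and 6 lower, against 23.8% of all named genes. Counting a gene when any probe passed added TGFB2 and gave 11, against 29.3% of all named genes. By role, 7 of 35 ligand genes and 3 of 16 receptor genes passed, against 0 of 8 inhibitors or binding proteins and 0 of 8 intracellular members. Of the 4 FGF homologous factors, FGF11 to FGF14, which stay inside the cell, 0 passed.

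The calls depended on the number of arrays. Without array 1, 13 member probes passed, of which 7 were among the 13 of all arrays. Without array 2 there were 2, without array 3 there were 4 and without array 4 there were 0, while the calls over all probes fell from 8996 to 5736, 1939, 2636 and 1239, respectively. The 13 mean ratios kept their sign in each of these fits. From the ratio of the processed signals, which also gives a ratio where both channels are dim, 45 member probes passed (27.6%, against 49.1% of all probes), 30 higher and 15 lower, and over all probes the split turned from 4155 higher and 4841 lower to 13912 higher and 7487 lower. Both probes of WNT3, WNT5B and FGFR4 kept their calls in each alternative that used all 4 arrays. With normexp background correction and loess, 5 of the 13 calls were kept, these and the TGFBR1 probe, while those of INHBA, INHA, INHBE, BMP3, TGFB2, FZD2 and WNT10A were lost.

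**Figure D1:**
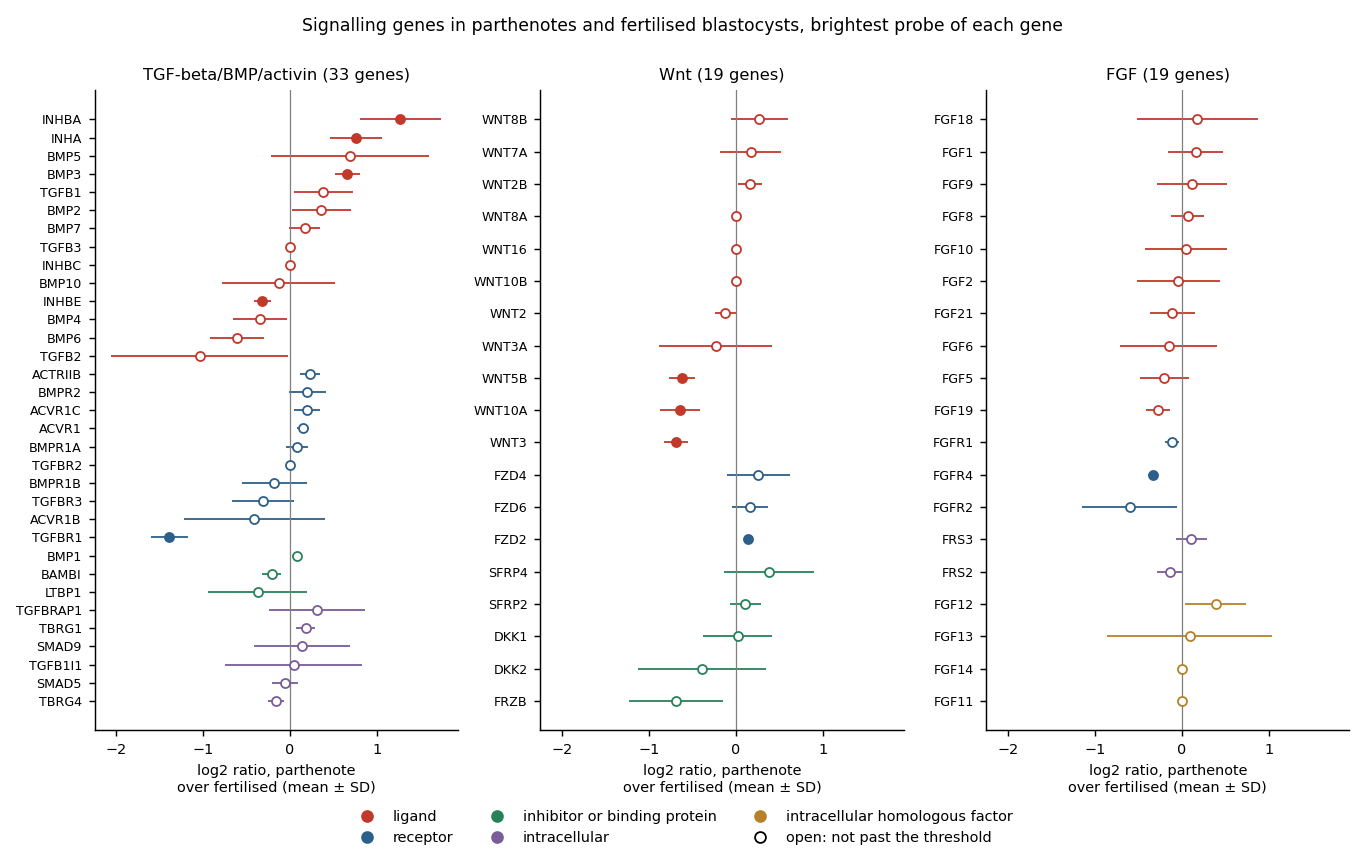
Mean log2 ratio of parthenote over fertilised (x axis, error bars SD over 4 arrays) of the brightest probe of each of the 71 genes, by family and coloured by role. Filled points passed the limma test: INHBA, INHA, BMP3, INHBE and TGFBR1 in the first panel, FZD2, WNT5B, WNT10A and WNT3 in the second and FGFR4 in the third.

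In the Wnt family, the signals of WNT3, WNT5B and WNT10A were lower in parthenotes, that of WNT10A near background and not under every alternative. These genes were 3 of the 11 ligand genes of the rule, against 12.3% of all named genes that were lower. With so few genes nothing is read from this share, and 6 of the 11 were not well above background in any pool. WNT3, a beta-catenin-activating ligand needed to form the primitive streak in mouse embryos, was lower by both of its probes. At base 1008 its processed signal was 81.9, 87.0, 82.5 and 73.6 in the parthenote pools of arrays 1 to 4 against 148, 136, 137 and 106 in the fertilised pools. The groups did not overlap, and the mean log2 ratio was -0.69 ± 0.14 (SD, n = 4), a level 1.61-fold higher in fertilised blastocysts (limma adjusted p = 0.0158). At base 863 the signal was 71.0, 73.5, 69.4 and 66.4 against 160, 147, 122 and 113. The parthenote pools lay close together there and all below the fertilised pools, with a mean log2 ratio of -0.94 ± 0.18 (adjusted p = 0.0147). Less RNA of a gene per cell and fewer cells that express it cannot be told apart in pooled embryos.

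WNT5B, a ligand close in sequence to WNT5A, had signals of 352, 470, 364 and 353 in parthenotes against 606, 716, 581 and 476 in fertilised blastocysts. The highest parthenote pool and the lowest fertilised pool nearly met, and on every array the parthenote pool was lower. Its mean log2 ratio was -0.62 ± 0.15 (adjusted p = 0.0199). WNT10A, known for its role in teeth and other epithelial appendages, gave 16.1, 21.0, 14.6 and 13.7 against 30.4, 26.7, 23.4 and 21.1. Its groups did not overlap but nearly met, at 21.0 and 21.1, and the probe was well above background in only 1 parthenote pool. Its mean log2 ratio was -0.64 ± 0.23 (adjusted p = 0.0383). With normexp background correction and loess, WNT10A came to -0.12 and did not pass (adjusted p = 0.155).

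WNT2, the ligand with the highest signal of its role, had mean log2 ratios of -0.15 to -0.12 over 5 overlapping probes, and none of these passed. Its brightest probe read 585, 613, 545 and 516 in parthenotes against 674, 637, 539 and 612, so the groups overlapped, but with normexp and median centring it came to -0.56 and passed (adjusted p = 1.37e-05). WNT2B had a mean log2 ratio of 0.16 and did not pass either.

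WNT5A, a ligand of ROR2, is given beside them, although its description falls outside the rule. Its processed signal was 4.59, 8.55, 4.29 and 3.85 in parthenotes against 23.1, 27.7, 25.6 and 20.6 in fertilised blastocysts. It was not well above background in any parthenote pool and was so in every fertilised pool, and the deposited log2 ratios were -2.33, -1.70, -2.57 and -2.42 (adjusted p = 0.0125). In normexp-corrected, loess- and Aquantile-normalised signals, which are compressed by an offset of 50, the mean for WNT5A was 1.24-fold lower in parthenotes. These signals used the background repair chosen after seeing the data, and the value is an estimate, not a lower limit. WNT5A did not pass with normexp and loess (-0.23, adjusted p = 0.0767) or with normexp and median centring (-0.06, adjusted p = 0.577). ROR2 itself had signals of 38.1, 54.7, 36.4 and 39.8 in parthenotes against 76.5, 89.4, 76.7 and 63.5, all parthenote pools below all fertilised pools. Its mean log2 ratio was -0.87 ± 0.20 (adjusted p = 0.0194).

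**Figure D2:**
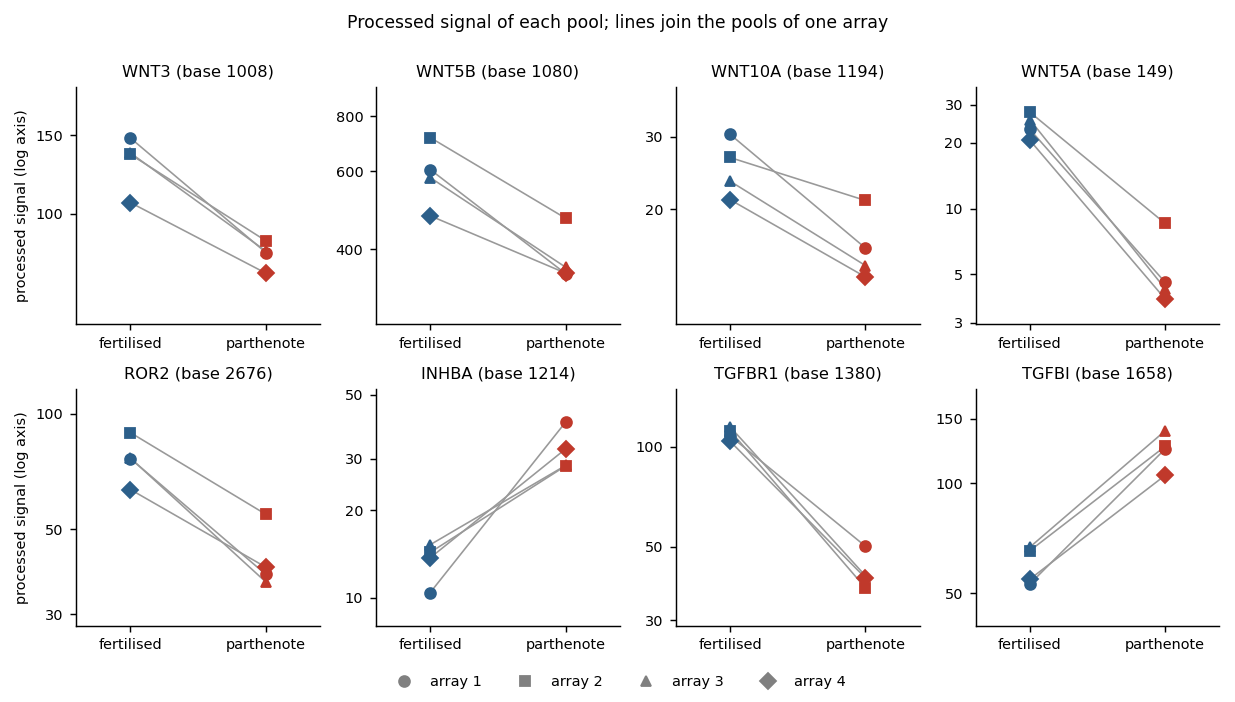
Processed signal (y axis, log scale, a separate range in each panel) of each fertilised pool (blue) and parthenote pool (red), with lines between the pools of an array. Lines run down towards the parthenotes on all 4 arrays for WNT3, WNT5B, WNT10A, WNT5A, ROR2 and the TGFBR1 probe at base 1380, and up for INHBA and TGFBI.

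Among the Wnt receptors, FZD2 had the smallest difference that passed. The log2 ratios of 0.12, 0.14, 0.15 and 0.14 gave a mean of 0.14 ± 0.01 (adjusted p = 0.00672), which turned to -0.48 with normexp and median centring. The signals of 1960, 1820, 1930 and 1590 in parthenotes overlapped those of 1800, 1650, 1740 and 1440 in fertilised blastocysts, and only the ratios within an array set the groups apart. FZD4 and FZD6 had mean log2 ratios of 0.26 and 0.16 and did not pass.

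None of the 5 Wnt inhibitors passed, which are secreted proteins that bind Wnt ligands or their co-receptors. DKK1, which blocks the LRP co-receptors, had signals of 5070, 7640, 8070 and 6580 in parthenotes against 7280, 7880, 6490 and 5280. The parthenote pool was lower on arrays 1 and 2 and higher on arrays 3 and 4, and the mean log2 ratio was 0.02 ± 0.40, which became -0.68 with a call under normexp and median centring. SFRP2, measured well above background in every pool, had a mean log2 ratio of 0.11 and did not pass. DKK2 was not well above background in any pool, SFRP4 was so in 1 pool of each group, and FRZB in 3 fertilised pools by 1 of its 7 probes, so these were not measured well enough to compare.

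**Figure D3:**
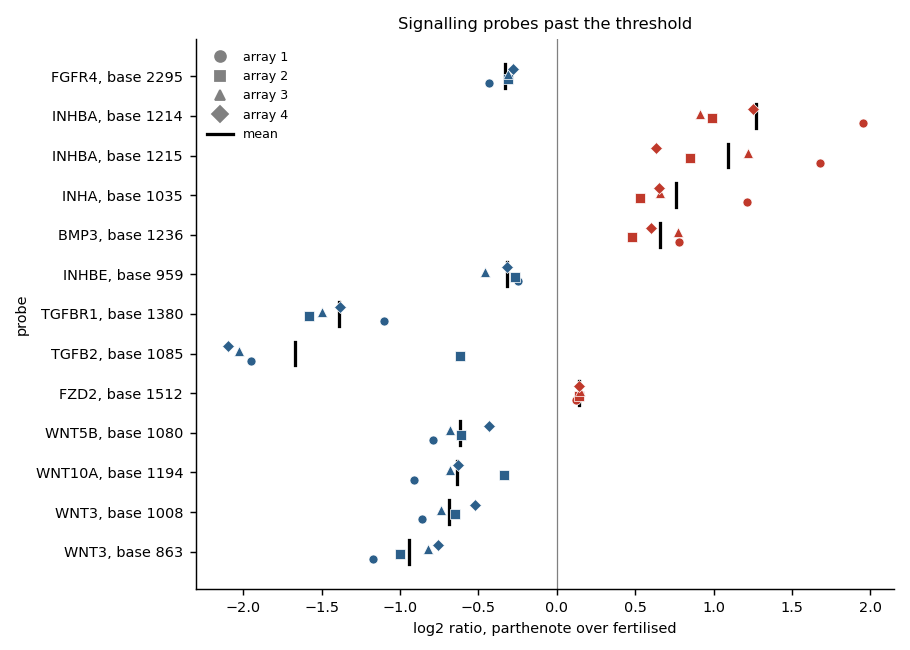
Log2 ratio of parthenote over fertilised (x axis) on each of the 4 arrays for the 13 member probes that passed the test, named by gene and first base in the transcript, with the mean as a black bar. All 4 arrays lie on the same side of 0 for each probe, and array 2 stands at -0.62 for TGFB2 while the others lie between -2.10 and -1.95.

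In the TGF-beta, BMP and activin family, 4 of 14 ligand genes passed by their brightest probe, 3 higher and 1 lower. Of all named genes 23.8% passed, and with only 14 ligand genes nothing is read from this share. INHBA encodes the beta A subunit that forms activin A. Its brightest probe, at base 1214, read 40.2, 28.4, 28.5 and 32.5 in parthenotes against 10.4, 14.3, 15.2 and 13.7 in fertilised blastocysts. All parthenote pools lay above all fertilised pools, with log2 ratios of 1.95, 0.99, 0.91 and 1.25 and a mean of 1.27 ± 0.47, a 2.42-fold higher level (adjusted p = 0.04). The difference was largest on array 1. The other 4 probes, which start within 7 bases of it, had mean log2 ratios of 0.84 to 1.09 and adjusted p-values of 0.0486 to 0.0798, so 2 of the 5 probes passed and all pointed the same way. The signal was well above background in 3 of 4 fertilised pools, and normexp with loess shrank the ratio to 0.31 (adjusted p = 0.0725).

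INHA, the alpha subunit that turns activins into inhibins, gave different answers from probes shifted by single bases, shown here with the stop codon in capitals.
INHA, base 1033: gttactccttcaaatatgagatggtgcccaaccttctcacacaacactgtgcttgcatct
INHA, base 1034: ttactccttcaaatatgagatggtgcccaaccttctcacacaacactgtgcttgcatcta
INHA, base 1035: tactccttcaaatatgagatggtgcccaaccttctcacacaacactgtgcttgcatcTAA

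At base 1035 the log2 ratios were 1.21, 0.53, 0.66 and 0.65, with a mean of 0.76 ± 0.30 (adjusted p = 0.0446), but the signals of 39.8, 29.6, 25.3 and 17.4 in parthenotes overlapped those of 17.2, 20.5, 16.0 and 11.1. At base 1034 the mean was 0.22 and at base 1033 it was -0.12, and neither passed (adjusted p = 0.523 and 0.895). The difference between the 3 probes was not tested. INHBE, the beta E subunit known from liver, was lower on every array, with log2 ratios of -0.25, -0.27, -0.46 and -0.32 and a mean of -0.32 ± 0.10 (adjusted p = 0.0278). Its signals of 107, 89.2, 77.1 and 78.7 in parthenotes and 127, 107, 106 and 98.2 in fertilised blastocysts overlapped.

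BMP3, a BMP that opposes osteogenic BMPs, read 38.7, 28.5, 45.1 and 34.0 in parthenotes against 22.5, 20.4, 26.5 and 22.5 at base 1236. All parthenote pools were higher, with a mean log2 ratio of 0.66 ± 0.14 (adjusted p = 0.0174). Its other 2 probes, at bases 1320 and 1365, were not well above background in any pool, and their deposited ratio was 0 on every array, the value the software gives where both channels are set to a surrogate. BMP7, the ligand with the highest signal of its role, had mean log2 ratios of 0.16 to 0.17 over 5 overlapping probes and none passed, and its brightest probe turned to -0.54 with a call under normexp and median centring. The probe is named from the array's description alone.

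BMP2, a BMP needed for amnion and heart formation in mice, was measured by 8 probes in 4 windows, and none passed. The brightest read 3100, 4310, 3680 and 3800 in parthenotes against 3350, 3160, 2800 and 2330, so the parthenote pool was lower on array 1 and higher on arrays 2 to 4. The same signs were seen with all 8 probes, whose mean log2 ratios ran from 0.06 to 0.42. BMP4 was lower on every array by all 5 of its overlapping probes, with mean log2 ratios of -0.42 to -0.35 and adjusted p-values of 0.0661 to 0.188.

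TGFB2, which acts in epithelial to mesenchymal transition, was measured by 3 partly overlapping probes that were not well above background in any parthenote pool. At base 1085 the signal was 5.95, 8.91, 3.41 and 3.82 in parthenotes against 22.9, 13.7, 14.0 and 16.4 in fertilised blastocysts, where it was well above background in every pool. The groups did not overlap, and the log2 ratios were -1.95, -0.62, -2.03 and -2.10 (adjusted p = 0.0494). In the same compressed signals as for WNT5A, the probe was 1.18-fold lower in parthenotes, again an estimate and not a lower limit. At base 1005, its brightest probe, the log2 ratios were -2.39, 0.07, -1.05 and -0.79. Array 2 lay on the other side of 0 and the probe did not pass (adjusted p = 0.228), with an estimate of 1.11-fold in the compressed signals. The probe at base 1045 was not well above background in any pool, so it gave no fold. The other TGF-beta ligands were dim as well, TGFB3 in both groups, and TGFB1, well above background in 2 parthenote pools and 1 fertilised pool, did not pass.

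**Figure D4:**
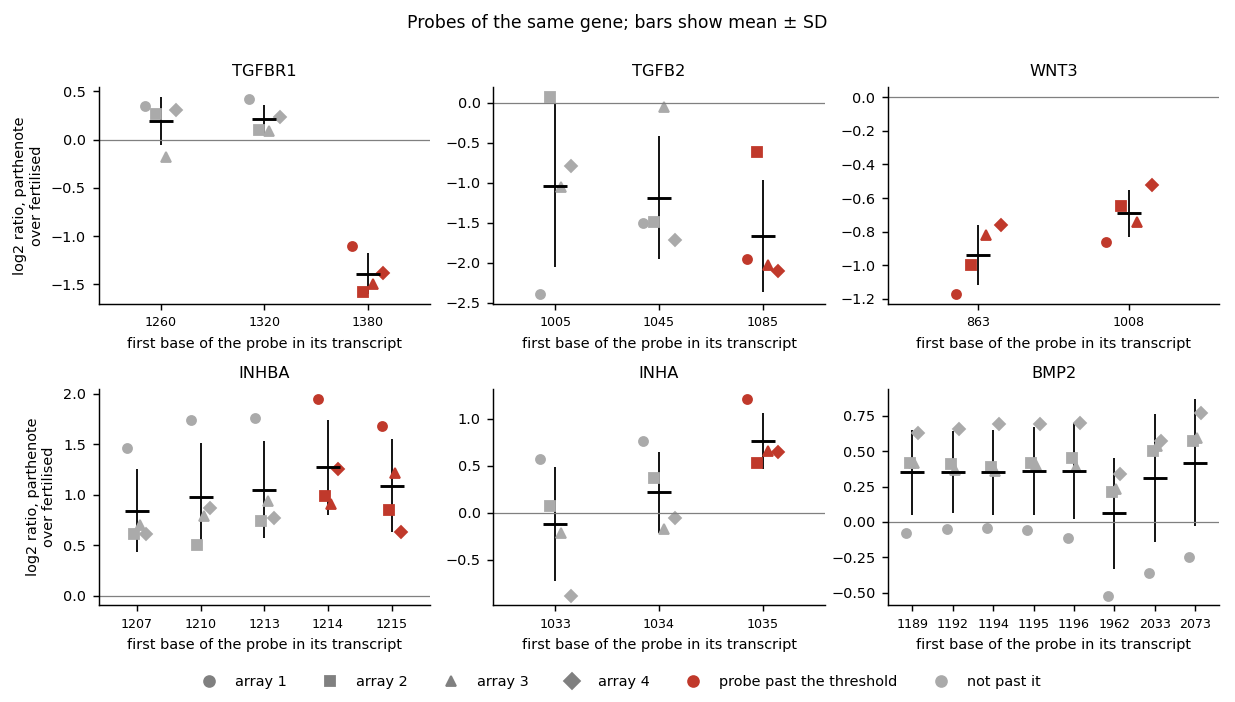
Log2 ratio of parthenote over fertilised (y axis, a separate range in each panel) on each of the 4 arrays for every probe of 6 genes, placed by its first base in the transcript (x axis, not to scale), with the mean and SD in black. Red probes passed the test: both of WNT3, 2 of 5 of INHBA, and 1 of 3 each of TGFBR1, TGFB2 and INHA.

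The receptor kinase TGFBR1, which phosphorylates SMAD2 and SMAD3, had the largest difference among the member probes well above background in every pool, but at only 1 of its 3 probes. At base 1380, which ends in the stop codon, the signal was 50.1, 37.5, 40.8 and 40.2 in parthenotes against 108, 112, 115 and 104 in fertilised blastocysts. The groups were far apart, with a mean log2 ratio of -1.39 ± 0.21, a level 2.62-fold higher in fertilised blastocysts (adjusted p = 0.0107). At base 1320, directly upstream, the signal was 85.7, 60.4, 51.0 and 57.9 against 64.1, 56.2, 48.0 and 49.5. There the groups overlapped, the mean log2 ratio was 0.21 ± 0.15 and the probe did not pass (adjusted p = 0.139). At base 1260 the mean log2 ratio was 0.19 ± 0.25 (adjusted p = 0.344). The array lists the first of these at chr1:14067788-14067844 and the second at chr1:14067845-14067904, on the minus strand. The mean over the 3 probes was -0.33 and did not pass (adjusted p = 0.0812).

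None of the other 9 receptor genes of this family passed. BMPR2, the type II BMP receptor, read 874, 1130, 1250 and 1140 in parthenotes against 910, 1040, 966 and 885, a mean log2 ratio of 0.20 ± 0.21 that turned to -0.36 with a call under normexp and median centring. ACVR1 and the activin receptor listed as ACTRIIB had mean log2 ratios of 0.15 and 0.23, and TGFBR2, TGFBR3, BMPR1B and ACVR1B were not well above background in any pool. Among inhibitors and binding proteins, BAMBI, a pseudoreceptor that blocks TGF-beta and BMP signals, was lower on every array without passing, with a mean log2 ratio of -0.21 ± 0.11 (adjusted p = 0.0807), and passed at -0.84 with normexp and median centring. LTBP1, which holds latent TGF-beta in the matrix, had log2 ratios of -1.21, 0.03, -0.24 and -0.07, so its mean of -0.37 rested on array 1. Of the intracellular members, TBRG4, a member only through the TGF-beta in its name, had a mean of -0.16 ± 0.09 (adjusted p = 0.08). It passed at -0.88 with normexp and median centring, and SMAD5, which carries BMP signals, had a mean of -0.06 ± 0.15.

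In the FGF family 1 of 19 genes passed, against 23.8% of all named genes. FGFR4, a receptor kinase, read 1100, 1160, 1140 and 1020 in parthenotes against 1480, 1430, 1420 and 1240. All parthenote pools were lower than all fertilised pools, with a mean log2 ratio of -0.33 ± 0.06, a level 1.26-fold higher in fertilised blastocysts (adjusted p = 0.0146). FGFR1 had a mean log2 ratio of -0.11 ± 0.08 and did not pass. FGFR2 had log2 ratios of -1.34, -0.16, -0.68 and -0.22, and was well above background in all fertilised pools but in only 1 parthenote pool (adjusted p = 0.201).

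Of the 10 FGF ligand genes 0 passed, against 23.8% of all named genes, and 5 were not well above background in any pool. FGF2, a factor used to keep human pluripotent stem cells in culture, had log2 ratios of 0.60, 0.07, -0.37 and -0.47. The direction differed between arrays, and its 5 overlapping probes had mean ratios of -0.29 to -0.02. FGF19, the secreted FGF of bile acid feedback, was lower on every array with a mean of -0.27 ± 0.14 (adjusted p = 0.0756). FGF12, an FGF homologous factor, had mean ratios of 0.23 to 0.50 over its 5 probes, with array 1 highest by each of them, and FRS2, the adaptor of FGF receptors, one of -0.13 ± 0.15.

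Other genes of these pathways were taken from a list of components and targets that the rule does not match. Of 145 such components 66 had a named probe, and 11 of these passed, 5 higher and 6 lower. Of 37 targets 16 had a named probe, and 2 passed, both lower, with 0 of the 3 TGF-beta and BMP targets passing. These shares can be read against 23.8% of all named genes. Counting any probe, 19 components and 3 targets passed, against 29.3% of all named genes. The components named here, and the targets that did not pass, were chosen after their values had been seen.

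By the brightest probe of each gene, the component that rose most was TGFBI, a matrix protein induced by TGF-beta. Single probes of DCN, FGF7 and PYGO1 reached mean log2 ratios of 1.72, 1.69 and 1.28, and 0 of 6, 1 of 6 and 1 of 3 of their probes passed, respectively. The list holds TGFBI as a component, so it is not among the targets counted above. It read 124, 126, 139 and 105 in parthenotes against 53.0, 65.3, 66.8 and 54.6 in fertilised blastocysts. All parthenote pools were higher, with a mean log2 ratio of 1.05 ± 0.13, a 2.06-fold higher level (adjusted p = 0.00879). AMHR2, the receptor of anti-Müllerian hormone, had a mean log2 ratio of 0.16 ± 0.05 (adjusted p = 0.0326), which turned to -0.23 with normexp and median centring. SMAD2, which carries TGF-beta and activin signals, was lower, with a mean log2 ratio of -0.26 ± 0.08 (adjusted p = 0.0285). NODAL, a ligand that also signals through SMAD2, was higher on every array without passing, with a mean log2 ratio of 0.60 ± 0.42 (adjusted p = 0.125). LEFTY2 and CER1, listed in the same family, went the other way on every array, also without passing. LEFTY2 had a mean log2 ratio of -0.32 ± 0.16 (adjusted p = 0.0687). CER1 had -0.69 ± 0.38 by its brightest probe (adjusted p = 0.0815), and -0.71 to -0.67 over its 5 probes.

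In the Wnt pathway, GSK3B and APC RNAs were higher in parthenotes by the main scaling. They were 2 of the 3 measured genes whose proteins mark beta-catenin for destruction, against 1197 higher of all 10351 named genes. These 3 were chosen after their values were seen, so nothing is read from this share. GSK3B had a mean log2 ratio of 0.29 ± 0.06 (adjusted p = 0.0155) and APC 0.34 ± 0.10 (adjusted p = 0.0262). Both changed sign, to -0.35 and -0.25, with normexp and median centring. CSNK1A1, the casein kinase of this complex, had a mean log2 ratio of 0.07 by its brightest probe and did not pass. Its other probe stood at -0.42 and did not pass either. LGR4, a receptor of R-spondins that strengthen Wnt signals, had 0.48 ± 0.14 (adjusted p = 0.0251) and turned to -0.09 under the same alternative. APCDD1, a membrane inhibitor of Wnt signals, was lower, with -0.28 ± 0.11 (adjusted p = 0.044), but did not pass with normexp and loess (-0.13, adjusted p = 0.125). AMHR2 did not pass with normexp and loess either, and the methods' t-test kept none of the calls of AMHR2, SMAD2, APC, LGR4 and APCDD1. CTNNB1, beta-catenin itself, had a mean log2 ratio of 0.08 and did not pass.

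In the FGF pathway, MAPK3, the kinase ERK1, was lower with a mean log2 ratio of -0.37 ± 0.07 (adjusted p = 0.0143). KL, the co-receptor klotho of endocrine FGFs, was lower by its brightest probe, with -0.58 ± 0.15 (adjusted p = 0.0222), while its 4 probes ranged from -0.58 to 0.25 and only this one passed. The mean over its probes was -0.08 and did not pass.

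The targets that passed were SPRY1 and MYC. SPRY1, a feedback inhibitor of FGF receptor signalling, read 26.2, 26.1, 28.0 and 22.8 in parthenotes against 40.3, 36.3, 34.8 and 35.4. The groups did not overlap, and the mean log2 ratio was -0.51 ± 0.15 (adjusted p = 0.0272), which shrank to -0.11 and did not pass with normexp and loess (adjusted p = 0.19). MYC, a target of Wnt signalling among other pathways, was lower with a mean of -0.15 ± 0.05 (adjusted p = 0.0385), and 6 of its 7 probes passed with mean ratios of -0.30 to -0.10 over all 7. The brightest MYC probe did not pass with normexp and loess (adjusted p = 0.0759), the dim-probe filter (0.0682), the methods' t-test (0.0701) or no pairing of the channels (0.175), and came to -0.83 with normexp and median centring. DUSP6, another feedback inhibitor of FGF signalling, was higher on every array by its brightest probe, with a mean log2 ratio of 0.31 ± 0.13 (adjusted p = 0.0521), and 2 of its 5 probes passed, with mean ratios of 0.31 to 0.49 over all 5. EGR1, an early response gene of the MAP kinases, was higher on every array at 0.50 without passing (adjusted p = 0.141), and its other probe stood at -0.31.

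The 2 other Wnt targets measured were lower on every array but did not pass. TBXT, the primitive streak gene brachyury, read 20.3, 14.4, 8.90 and 4.56 in parthenotes against 30.7, 34.2, 32.8 and 9.17 in fertilised blastocysts. It was well above background in 1 parthenote pool and 3 fertilised pools, and the mean log2 ratio was -1.18 ± 0.54 (adjusted p = 0.0566). NKD1, a feedback inhibitor that binds Dishevelled, was not well above background in any parthenote pool and was so in every fertilised pool. Its mean log2 ratio was -0.84 ± 0.46 (adjusted p = 0.079), and the signals compressed as for WNT5A gave an estimate of 1.15-fold lower.

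**Figure D5:**
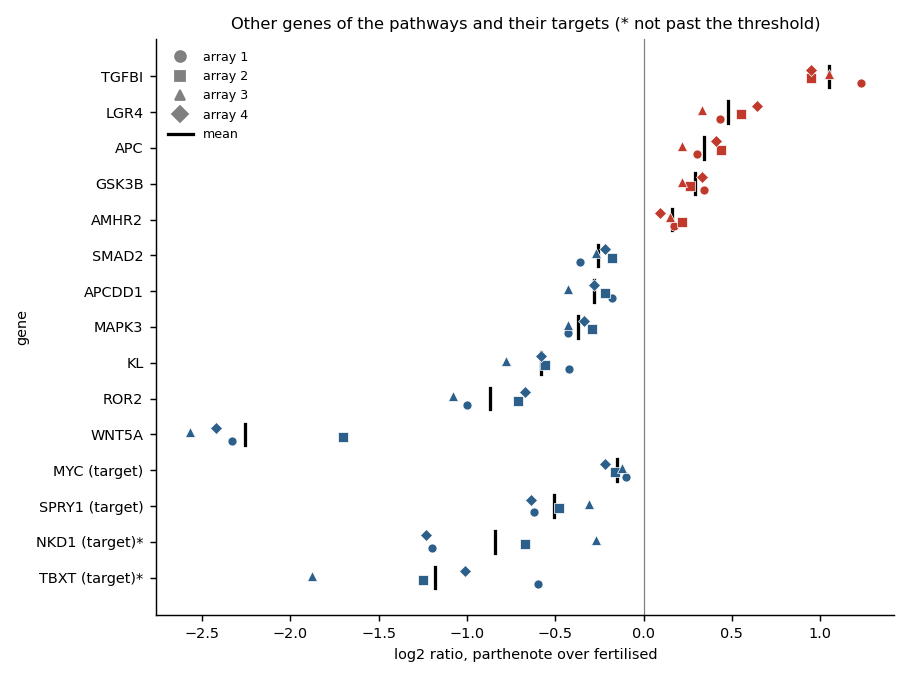
Log2 ratio of parthenote over fertilised (x axis) on each of the 4 arrays for the 11 components and 2 targets outside the rule that passed the test, and for TBXT and NKD1, which did not, with the mean as a black bar. WNT5A lies between -2.57 and -1.70 and TGFBI between 0.95 and 1.23.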

How the data were processed

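RNA of 4 parthenote and 4 fertilised pools was measured on 4 arrays with 2 colours. The authors extracted spots with Feature Extraction 10.10.1.1, and the deposited log10 ratio of each spot is processed Cy5 over processed Cy3 intensity, 0 where both channels were dim. The deposited processed intensity is corrected for background and for dye bias on its array, and the deposited mean and background intensity were raw. The authors' series table repeats this log10 ratio with the opposite sign. Here ratios were turned to log2 parthenote over fertilised, flagged spots were removed, spots of a probe were averaged, and probes with values on at least 3 arrays were tested against 0 with limma 3.58.1 in R 4.3.3, with Benjamini-Hochberg adjustment. Scripts used Python 3.11.15, pandas 2.3.3 and matplotlib 3.10.9, and the test was tested on simulated data. There it recovered 13 of 50 changes of 1.5-fold, 26 of 50 of 2-fold, 28 of 50 of 3-fold and 37 of 50 of 5-fold. It made 17 false calls over the 43595 probes. Many real changes would thus be missed, and a gene that did not pass is not shown to be unchanged. The pools of a group were independent per the study's methods, and the small number of arrays limits the precision.

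Channels of the same array deviated together from their group means (r = 0.60 to 0.65, against -0.23 to -0.19 for other arrays), so the pairing within arrays was kept.

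Genes were named from the array's descriptions, accessions and gene identifiers, with a rabbit gene table of the assembly mOryCun1.1 used for names only, and 11 genes by hand from the array's description. Each gene stood by its probe with the highest mean log2 signal. By rule the text names all members that passed, the brightest gene of each role, TGFB2 and the targets that passed, and all other genes in it were chosen after their values were seen. The members and lists were chosen with earlier results of these data known. Alternatives were normexp (offset 50) with loess or median centring, the ratio of processed signals, the series table, a filter on dim probes (kept if well above background in 1 or both channels, on each array), flagged spots kept, the methods' t-test, no pairing, trend with robust estimation, each array left out, averaging the probes of each gene, and any probe of a gene. Chosen after seeing the data was normexp with loess after background values that exceeded the signal by over 30 units were set to the array's median. No genome or protein sequences were used here. A listed target gene and some probe sequences are not reported here.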

Additional observations from a re-analysis of the deposited data

Results flagged for a closer look

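In 1 of 36 probes examined, 1 array lay far from the other 3, by a test that chance meets in about 1 in 20 groups. The TGFB2 probe at base 1085 had a log2 ratio of -0.62 on array 2, against -2.10 to -1.95 on the other arrays.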

How the results depend on the processing

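The signs of the 13 member probes that passed were kept in all alternatives, except that FZD2 turned to -0.48 with normexp and median centring, where WNT10A (-0.02) and TGFB2 (-0.05) also came to nearly 0. With all arrays the member probes that passed, 13 in the values reported, were 5 with normexp and loess, 102 with normexp and median centring, 34 with repaired backgrounds (chosen after seeing the data), 45 with the ratio of processed signals, 20 with the dim-probe filter, 7 with the methods' t-test and 31 with no pairing of the channels, that is without the replicate block. These were 3.07%, 62.6%, 20.9%, 27.6%, 20.8% and 4.29% of the members tested up to the t-test, against 14.9%, 72.5%, 30.1%, 49.1%, 42.2% and 10.2% of all probes, and no pairing passed 37.5% of all probes. The TGF-beta, BMP and activin family, with 7 probes reported, had 1, 54, 26, 24, 13, 2 and 14 under these, in the same order, and 4 with trend and robust estimation. The Wnt family, with 5 reported, had 3 with normexp and loess, 27 with median centring, 3 with repaired backgrounds, 10 with processed signals and 9 with no pairing. The FGF family, with 1 reported, had 21 with median centring, 5 with repaired backgrounds, 11 with processed signals, 3 with the dim-probe filter and 8 with no pairing. Member genes that passed, 10 reported, were 4 with normexp and loess, 47 with median centring, 24 with processed signals, 6 with the t-test and 17 with no pairing. Other pathway genes that passed, 13 reported, were 47 with median centring, 21 with repaired backgrounds, 27 with processed signals, 24 with the dim-probe filter and 6 with the t-test. The cause of these changes was not tested.

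Leaving out an array in turn gave 0 to 13 member probes, 0 to 7 in the TGF-beta family, 0 to 3 each in the Wnt and FGF families, 0 to 7 member genes and 0 to 6 other pathway genes, and the lowest of each came without array 4. With normexp and median centring, BMP7 turned to -0.54, BMPR2 to -0.36, DKK1 to -0.68, AMHR2 to -0.23, APC to -0.25, GSK3B to -0.35 and LGR4 to -0.09. The series table holds the values reported, so it bears on nothing. Low signals limit the dim members: 59 of 163 probes were never well above background, and a ratio of 0 there is no measurement.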
